A study of Mus musculus with 27 samples.

Results

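The genes described here carry long-chain fatty acids into the heart muscle cell and break them down by beta-oxidation. The list holds 33 genes, named by their function in this pathway, and each was followed over the 9 groups of a mouse heart array series through the probe set with the highest mean among those annotated with that gene alone. By this rule 31 of the 33 were measured, of 19937 genes in all. Acsl1, the main acyl-CoA synthetase of heart, and Cpt1b, the muscle form of carnitine palmitoyltransferase I, had no probe set of their own in the annotation used and were not analysed here. Of the 31 genes, 2 (Acsf2 and Fabp3) had a second probe set, described beside them.

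RNA was measured in pieces of heart from male C57Bl/6J littermates. The mice had a sham operation or transverse aortic constriction (TAC), a suture around the aortic arch that makes the left ventricle pump against raised pressure. They were then injected with vehicle (DMSO) or with JQ1, a small molecule that displaces the BET bromodomain proteins from acetylated chromatin, the first injection following the operation after a delay. Hearts were collected at days 3, 11 and 28. The 3 groups of each day were sham with vehicle ("sham"), TAC with vehicle ("TAC") and TAC with JQ1 ("JQ1"), with 3 arrays each, 27 in all. All groups share strain, sex, an operation and the age given for them, but hearts of different days were collected at different times after surgery. There was no sham group given JQ1, so JQ1 was compared with vehicle only within hearts under pressure overload. Comparisons of JQ1 with sham hearts differ in both surgery and drug. The TAC gradient was produced by surgery and not by a transgene, and JQ1 reached the whole animal. Nothing beyond the word littermates says that the 3 arrays of a group came from separate animals, so p-values measure only the spread between these samples.

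Fatty acids are the main fuel of the adult heart. Lipoprotein lipase releases them from circulating triglyceride, membrane and cytosolic proteins bring them into the cell, and acyl-CoA synthetases activate them. The carnitine shuttle carries the acyl chain across the mitochondrial inner membrane, a step that malonyl-CoA holds back. Inside, each turn of the cycle uses an acyl-CoA dehydrogenase, a hydratase, a hydroxyacyl-CoA dehydrogenase and a thiolase, and electrons leave through the electron transfer flavoprotein. Auxiliary enzymes prepare unsaturated chains. Many of these genes are known targets of the nuclear receptors PPAR alpha and ERR alpha and their coactivator PGC-1 alpha, and a lower expression of the pathway in the overloaded heart is well known.

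The 250 bases upstream of the annotated start were taken from RefSeq (GRCm38.p6) for the 24 of 31 genes that matched its promoter table by symbol. With the windows of a gene averaged (Slc27a1 has 3), median GC content was 59.2% over these genes and 52.4% over all genes of the table, and 19 of the 24 lay above the latter. On either strand, GGGCGG, the core of a GC box, was found in 15 of the 24 and in 35.4% of 27025 genes. AGGTCA, the core read by nuclear receptors, was found in 5 of the 24 (Acadm, Acadvl, Cd36, Cpt1a and Echs1) and in 15.8% of all genes. Longer forms that hold it were found in 0 of the 24: a direct repeat with 1 base between, read by PPAR alpha, which 0.0407% of all genes have, and TNAAGGTCA, read by ERR alpha, which 1.3% have. A match is a description of the letters in the window and not a binding site. The sequences of 7 genes named in the JQ1 results below are shown, and a link between motifs and JQ1 was not tested. Hadhb stands for the divergent pair Hadha and Hadhb, Acadm, Etfa and Eci1 were higher with JQ1 on 2 of the 3 days, and Acsf2, Acacb and Acot2 were the 3 genes lower with JQ1 at day 28. Acadl, also higher with JQ1 on 2 days, is not printed. Its window had 4 matches to GGGCGG, as many as that of Acsf2. Capitals mark the GC box core or the nuclear receptor core, on either strand, and each sequence runs 5′ to 3′ on the strand of its gene and ends just before its start.
Hadhb (chr5:30155003-30155252, plus strand): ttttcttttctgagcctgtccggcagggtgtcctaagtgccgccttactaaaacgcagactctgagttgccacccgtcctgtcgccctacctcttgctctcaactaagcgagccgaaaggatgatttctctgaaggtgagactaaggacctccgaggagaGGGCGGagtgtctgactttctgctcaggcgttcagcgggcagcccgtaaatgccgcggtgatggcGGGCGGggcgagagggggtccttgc
Acadm (chr3:153944644-153944893, minus strand): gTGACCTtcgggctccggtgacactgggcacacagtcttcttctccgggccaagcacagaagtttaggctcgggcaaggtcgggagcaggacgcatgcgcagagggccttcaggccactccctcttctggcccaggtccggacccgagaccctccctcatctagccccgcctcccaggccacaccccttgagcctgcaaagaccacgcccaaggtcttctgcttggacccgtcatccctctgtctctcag
Etfa (chr9:55512244-55512493, minus strand): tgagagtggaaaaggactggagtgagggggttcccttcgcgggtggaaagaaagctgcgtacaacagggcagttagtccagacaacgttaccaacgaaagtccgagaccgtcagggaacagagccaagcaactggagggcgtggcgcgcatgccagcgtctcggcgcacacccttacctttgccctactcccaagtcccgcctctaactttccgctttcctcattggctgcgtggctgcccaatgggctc
Eci1 (chr17:24426433-24426682, plus strand): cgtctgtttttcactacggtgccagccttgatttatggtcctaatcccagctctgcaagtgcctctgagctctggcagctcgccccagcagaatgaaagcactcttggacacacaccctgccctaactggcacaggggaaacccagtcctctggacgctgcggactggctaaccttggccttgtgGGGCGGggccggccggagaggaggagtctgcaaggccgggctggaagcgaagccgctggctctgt
Acsf2 (chr11:94601787-94602036, minus strand): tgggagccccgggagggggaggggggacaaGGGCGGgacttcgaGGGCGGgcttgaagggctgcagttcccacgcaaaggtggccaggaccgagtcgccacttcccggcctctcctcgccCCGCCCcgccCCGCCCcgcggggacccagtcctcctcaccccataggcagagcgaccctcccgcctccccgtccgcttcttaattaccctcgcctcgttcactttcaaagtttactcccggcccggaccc
Acacb (chr5:114165268-114165517, plus strand): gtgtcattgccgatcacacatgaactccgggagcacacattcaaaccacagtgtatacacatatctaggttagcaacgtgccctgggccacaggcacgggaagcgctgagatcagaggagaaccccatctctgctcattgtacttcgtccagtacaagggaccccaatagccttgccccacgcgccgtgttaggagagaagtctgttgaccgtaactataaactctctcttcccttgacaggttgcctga
Acot2 (chr12:83987611-83987860, plus strand): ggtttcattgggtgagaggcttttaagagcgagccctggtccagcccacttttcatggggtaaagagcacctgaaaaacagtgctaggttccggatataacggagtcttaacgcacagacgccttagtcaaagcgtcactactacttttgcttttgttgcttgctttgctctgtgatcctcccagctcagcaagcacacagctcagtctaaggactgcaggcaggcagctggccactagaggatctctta
Hadha starts at base 30154980 of chromosome 5 on the minus strand and Hadhb at base 30155253 on the plus strand, 273 bases apart, so the Hadhb window printed here lies wholly between the 2 starts. Acadm carries the reverse complement of AGGTCA near the upstream end of its window, Acsf2 has 4 GC boxes, Hadhb 2 and Eci1 1, and neither motif is present in the windows of Etfa, Acacb and Acot2.

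Values are log2 signals as deposited, a difference of 1 being a doubling, with array medians between 6.954 and 7.043. Each difference between groups is given with the standard error (SE) of a linear model fitted over all 27 arrays, and a gene was called where its p-value, adjusted over all 19937 genes by the Benjamini-Hochberg method in limma, was under 0.05. The 12 cardiomyocyte markers lay at or above percentile 97.8 of all genes. Day 3 held the arrays that stood furthest apart. The mean of the 31 genes, taken after subtracting each gene's mean over all arrays, was -0.21 in TAC replicate 2 and at or above -0.049 in the other TAC arrays of day 3. It was 0.18 in JQ1 replicate 1 and at or below 0.016 in the other JQ1 arrays of that day, so day 3 counts are given with and without these arrays. At day 28 this mean ran from -0.19 to -0.068 in JQ1 arrays (median -0.076) and from -0.18 to -0.063 in TAC arrays (median -0.16). In pieces of whole tissue fewer cells of a type and less RNA per cell cannot be told apart.

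TAC lowered most of the pathway on every day. At day 3, 20 of the 31 genes were lower in TAC than in sham hearts and 0 were higher, against 3.33% of all genes called lower and 4.22% called higher, and 25 passed an unadjusted p under 0.05. The median difference was -0.29 and the range -0.46 to -0.014, while the median of all genes was -0.031. At day 11, 24 genes were lower and 0 higher, against 7.73% and 7.8% of all genes, with 26 under an unadjusted p of 0.05. Here the median was -0.41, a signal that fell by 24.9%, and the range ran from -1.08 for Slc27a1 to 0.082 for Fabp4. At day 28, 24 were lower and 0 higher, against 6.98% and 8.13% of all genes, with 24 under an unadjusted p of 0.05 and a median of -0.33. All TAC arrays lay below all sham arrays for 25, 27 and 25 of the 31 genes on days 3, 11 and 28, where 11.9%, 16.6% and 21.1% of all genes did so. In the mean of the 3 days 27 genes were lower and 0 higher, with 27 under an unadjusted p of 0.05, against 12.9% and 13% of all genes. The exceptions were Cd36, Fabp3, Fabp4 and Acot13. The day 3 count fell to 8 without TAC replicate 2 and to 12 without sham replicate 1, and to 0 where only the arrays compared or the 3 groups of that day were fitted. No scaling of the arrays turned the direction of the list, but Fabp3 and Acot13 were called higher at day 28 when arrays were centred on cardiomyocyte markers.

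**Figure D1:**
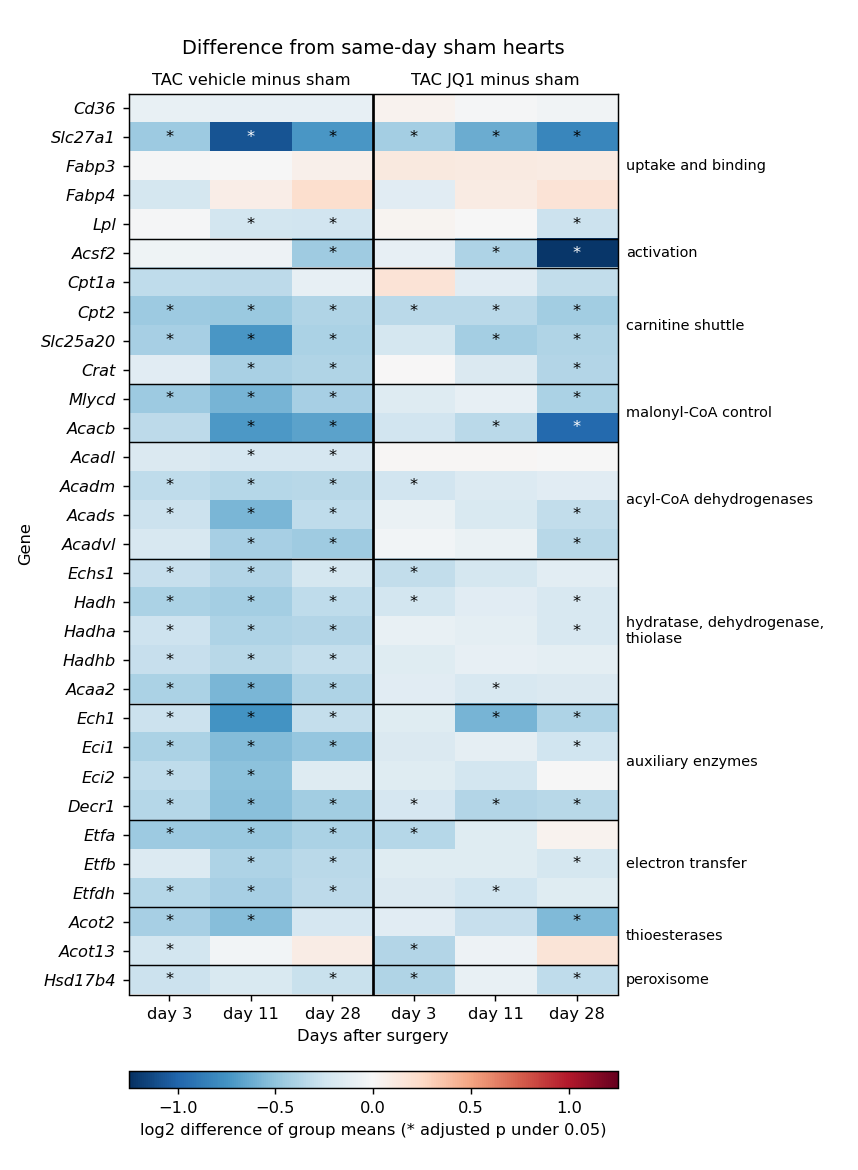
Log2 difference from the sham hearts of the same day for the 31 genes (rows, grouped by role) in TAC hearts given vehicle (left 3 columns) and in TAC hearts given JQ1 (right 3 columns), as differences of the means of 3 arrays a group; asterisks mark adjusted p under 0.05. In the vehicle columns 20, 24 and 24 genes carry an asterisk on days 3, 11 and 28, and in the JQ1 columns 9, 9 and 18; centring arrays on cardiomyocyte markers adds Fabp3 and Acot13 as higher at day 28.

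Between JQ1-treated and vehicle-treated TAC hearts 2, 17 and 9 of the 31 genes were called on days 3, 11 and 28, counts that are not a test of a difference between days, which is given below. At day 3, 0 genes were lower and 2 higher (Cpt1a and Acaa2), against 7.61% and 4.28% of all genes, and 13 passed an unadjusted p under 0.05. The median difference was 0.14. At day 11, 16 were higher and 1, Acsf2, was lower, against 7.52% and 8.43% of all genes; the median was 0.23 while that of all genes was -0.050. The JQ1 and TAC arrays did not overlap for 28 of the 31 genes at day 11, against 36.3% of all genes. At day 28, 6 were higher (Acaa2, Acadl, Acadm, Eci1, Etfa and Hadhb) and 3 lower (Acacb, Acot2 and Acsf2), against 7.16% and 12.4% of all genes, and the median was 0.055, as for all genes at 0.058. That split turned to 1 higher, Etfa, and 3 lower with arrays centred on their median, and likewise with arrays centred on the 12 cardiomyocyte markers. In the mean of the 3 days 18 were higher and Acsf2 lower, against 12.3% and 16.8% of all genes, with a median of 0.13. Centring on the 12 markers left 7 higher and 2 lower, Acsf2 and Acot13, with a median of 0.041. The 2 calls of day 3 were both lost without TAC replicate 2 and without JQ1 replicate 1, and 6 genes were called without JQ1 replicate 3. The day 11 count of 17 became 11 without JQ1 replicate 2, and with arrays centred on the 12 cardiomyocyte markers it became 6, of which 4 were higher and 2, Acsf2 and Acot13, lower. Much of that marker shift came from Tcap: the mean marker difference was 0.18 over 12 markers and 0.075 over 11 without Tcap. Centring on those 11 left 12 genes called at day 11, 11 of them higher. The day 28 count of 9 became 2 without TAC replicate 1, 3 without TAC replicate 3 or JQ1 replicate 2, and 4 without JQ1 replicate 3.

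**Figure D2:**
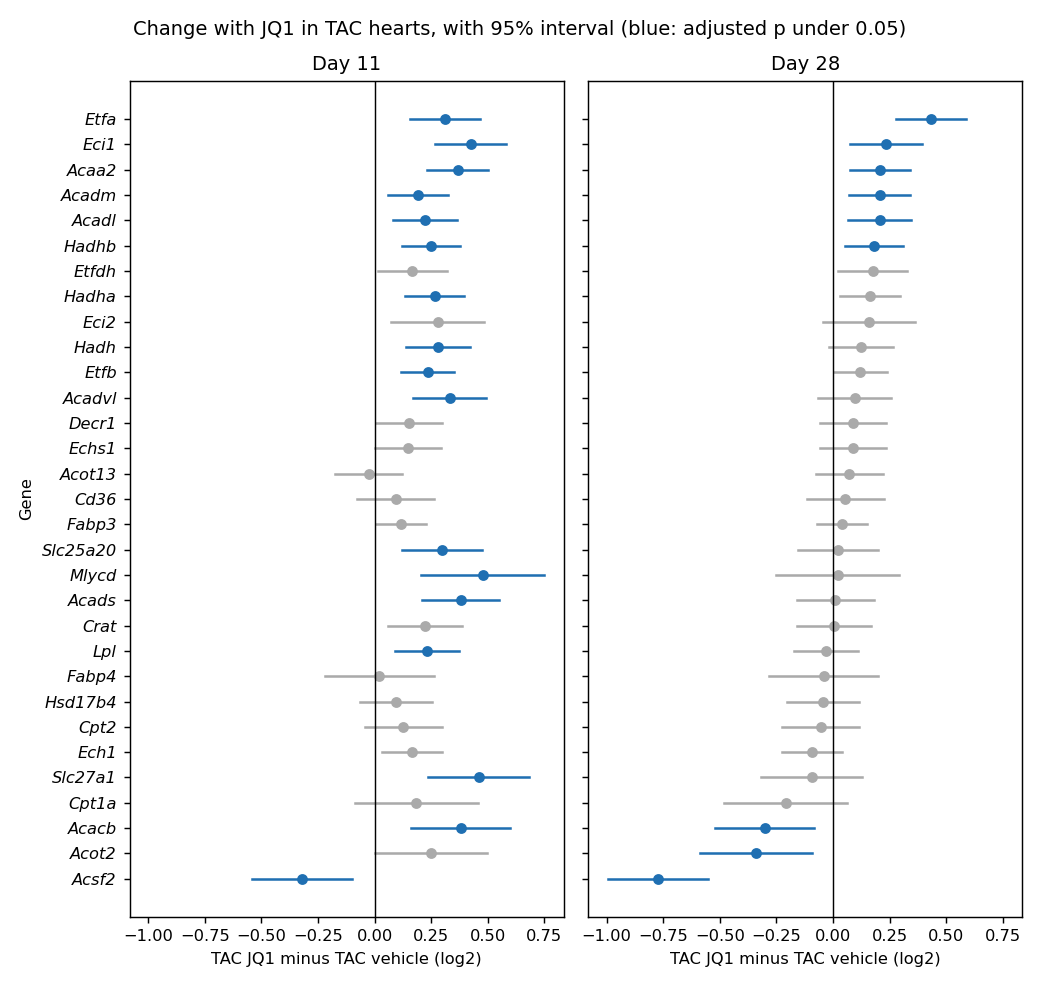
Log2 difference between JQ1-treated and vehicle-treated TAC hearts at day 11 (left) and day 28 (right) for each gene (rows, ordered by the day 28 difference), as points with 95% confidence intervals from the fit over 27 arrays; blue marks adjusted p under 0.05. At day 11, 16 genes are called to the right of 0 and Acsf2 to its left. At day 28 the values spread from 0.43 for Etfa to -0.77 for Acsf2. Centring on the 12 cardiomyocyte markers moves the split to 4 higher and 2 lower at day 11, and to 1 higher and 3 lower at day 28. Centring on 11 markers, without Tcap, leaves 12 genes called at day 11, 11 of them higher.

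Set against the sham hearts of the same day, hearts under TAC with JQ1 had 9 genes lower and 0 higher at day 3 (10.7% and 6.94% of all genes), 9 lower and 0 higher at day 11 (5.51% and 5.01%), and 18 lower and 0 higher at day 28 (12.6% and 7.36%). These counts include genes not called between TAC and sham on the same day, such as Acsf2 at day 11 and Acot2 at day 28. An unadjusted p under 0.05 was reached by 18, 18 and 22 genes. The median differences were -0.15, -0.15 and -0.25. Cpt2, Decr1 and Slc27a1 were called lower than sham on all 3 days, but each lost a call when 1 array was left out: Decr1 at day 3 without 5 of the 6 arrays compared (adjusted p from 0.0693 to 0.21), Slc27a1 at day 3 without JQ1 replicate 3 and Cpt2 at day 11 without JQ1 replicate 1. The day 3 count became 14 without JQ1 replicate 1, and the day 11 count became 5 without sham replicate 1, sham replicate 3 or any 1 of the 3 JQ1 arrays. At day 28 the count became 12 without JQ1 replicate 1, which ended the calls of Acads, Eci1, Hadh, Hadha, Lpl and Mlycd. These comparisons use the same JQ1 arrays as those with TAC hearts and the same sham arrays as the TAC comparisons, so the values stand side by side and are not independent.

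Some calls rested on single arrays. Of the TAC calls, 8 of 20 at day 3, 22 of 24 at day 11 and 17 of 24 at day 28 held without any 1 array. At day 3 the calls of Ech1, Hadhb, Slc25a20 and Slc27a1 were lost without TAC replicate 2, those of Echs1 and Hadha without TAC replicate 2 or sham replicate 1, and those of Acads, Acot13, Acot2, Eci2, Hsd17b4 and Mlycd without any of 4 or 5 arrays. At day 11 Acadl and Lpl were lost without 5 and 4 arrays. At day 28 Acads was lost without TAC replicate 3, Acsf2 without TAC replicate 3 or sham replicate 2, Lpl without replicate 3 of TAC or of sham, Hsd17b4 without TAC replicate 1 or sham replicates 1 or 2, and Acadl, Echs1 and Mlycd without 5 arrays each. Of the JQ1 calls against TAC, 10 of 17 held at day 11 and 2 of 9, Acsf2 and Etfa, at day 28. At day 11 Acacb was lost without JQ1 replicate 2, Mlycd without JQ1 replicate 1 or TAC replicate 2, Slc25a20 without JQ1 replicate 2 or TAC replicate 1, and Acadl, Acadm, Lpl and Acsf2 without 4, 5, 5 and 6 of the 6 arrays compared. At day 28 Acaa2, Acacb, Acadl, Acadm, Eci1, Hadhb and Acot2 were lost without 3 to 6 of the 6 arrays. Of the JQ1 calls against sham, 6 of 9, 4 of 9 and 12 of 18 held. Those lost without JQ1 replicate 1 alone were Cpt2 at day 11 and Acads and Lpl at day 28, and Slc27a1 at day 3 was lost without JQ1 replicate 3. Decr1 and Hadh at day 3 were lost without 5 and 4 of the 6 arrays, Acaa2, Acacb, Etfdh and Acsf2 at day 11 without 6, 6, 6 and 4, and Hadh, Hadha, Mlycd and Eci1 at day 28 without 5, 4, 4 and 3.

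Among the 5 genes of uptake and binding, TAC lowered Slc27a1 on all 3 days and Lpl on 2, and Cd36, Fabp3 and Fabp4 were not called. In this and the other roles, TAC counts stand beside 3.33%, 7.73% and 6.98% of all genes called lower on days 3, 11 and 28. Counts of genes raised by JQ1 stand beside 4.28%, 7.52% and 7.16% of all genes. Slc27a1 encodes FATP1, a fatty acid transport protein with acyl-CoA synthetase activity. At day 3 Slc27a1 read 10.67, 10.69 and 10.74 in sham, 10.26, 10.04 and 10.44 in TAC and 10.47, 10.38 and 9.99 in JQ1 hearts. Slc27a1 at day 11 gave 10.81, 10.60 and 10.58 in sham, 9.64, 9.48 and 9.61 in TAC and 9.94, 10.10 and 10.08 in JQ1 hearts. By day 28 Slc27a1 stood at 10.81, 10.77 and 10.81 in sham, 10.09, 10.08 and 10.04 in TAC and 9.84, 10.17 and 9.92 in JQ1 hearts. Every sham array lay above every TAC and JQ1 array on all 3 days, and at day 11 the JQ1 arrays lay between the others with no overlap. Slc27a1 in TAC hearts differed from sham by -0.46, -1.08 and -0.72 at days 3, 11 and 28 (SE 0.11 each, adjusted p = 0.00945, 3.67e-07 and 6e-05). At day 11 the signal fell by 52.8%. With JQ1 Slc27a1 differed from TAC by 0.034, 0.46 and -0.095 at days 3, 11 and 28 (SE 0.11 each, adjusted p = 0.915, 0.00461 and 0.542), so the gene rose with JQ1 at day 11 and passed the test on no other day. Against sham, JQ1 hearts differed by -0.42, -0.62 and -0.82 at days 3, 11 and 28 (SE 0.11 each, adjusted p = 0.00739, 0.000476 and 7.36e-06).

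Lpl encodes lipoprotein lipase, which is made by heart muscle and acts at the capillary wall. At day 3 Lpl read 13.09, 13.13 and 13.18 in sham, 13.18, 12.97 and 13.21 in TAC and 13.26, 13.15 and 13.08 in JQ1 hearts. Lpl at day 11 gave 13.05, 13.09 and 13.11 in sham, 12.83, 12.92 and 12.80 in TAC and 13.07, 13.06 and 13.11 in JQ1 hearts. By day 28 Lpl stood at 13.15, 13.16 and 13.20 in sham, 12.94, 12.98 and 12.88 in TAC and 12.77, 12.96 and 12.98 in JQ1 hearts. At day 3 the 3 groups overlapped, at day 11 the TAC arrays lay below both other groups, and at day 28 the sham arrays lay above both. Lpl in TAC hearts differed from sham by -0.014, -0.23 and -0.24 at days 3, 11 and 28 (SE 0.069 each, adjusted p = 0.955, 0.0209 and 0.0196). With JQ1 Lpl differed from TAC by 0.049, 0.23 and -0.029 at days 3, 11 and 28 (SE 0.069 each, adjusted p = 0.773, 0.0224 and 0.778), and from sham by 0.034, -0.00055 and -0.27 at days 3, 11 and 28 (SE 0.069 each, adjusted p = 0.841, 0.997 and 0.00653).

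Cd36, the fatty acid translocase, was not called in any comparison. Its levels ran from 12.79 to 13.34 over the 27 arrays, the highest being JQ1 replicate 1 of day 3. TAC hearts differed from sham by -0.088, -0.10 and -0.10 at days 3, 11 and 28 (SE 0.082 each, adjusted p = 0.667, 0.511 and 0.455). With JQ1 the Cd36 difference from TAC was 0.13, 0.093 and 0.055 at days 3, 11 and 28 (SE 0.082 each, adjusted p = 0.389, 0.485 and 0.648), and that from sham was 0.041, -0.01 and -0.044 at days 3, 11 and 28 (SE 0.082 each, adjusted p = 0.843, 0.962 and 0.799). Fabp3, the fatty acid-binding protein of heart muscle, gave TAC differences of -0.019, -0.0015 and 0.06 at days 3, 11 and 28 (SE 0.053 each, adjusted p = 0.918, 0.993 and 0.487), the smallest of the group at days 11 and 28. With JQ1 its differences from TAC were 0.14, 0.12 and 0.039 at days 3, 11 and 28 (SE 0.053 each, adjusted p = 0.0998, 0.15 and 0.615). In a limma fit of all 21640 probe sets, its mean JQ1 difference over the 3 days was 0.098 (adjusted p = 0.0176). For that mean its other probe set gave 0.16 and was not called (adjusted p = 0.0777). The second Fabp3 probe set was higher in JQ1 than in sham hearts at day 3, by 0.42 with an adjusted p of 0.016, where the probe set used here gave 0.12. Fabp4, the fatty acid-binding protein of capillary endothelium and fat cells, differed between TAC and sham by -0.22, 0.082 and 0.21 at days 3, 11 and 28 (SE 0.12 each, adjusted p = 0.325, 0.777 and 0.243). With JQ1, Fabp4 gave differences from TAC smaller than their error, 0.082, 0.022 and -0.042 at days 3, 11 and 28 (SE 0.12 each, adjusted p = 0.774, 0.922 and 0.815). The Fabp4 differences between JQ1 and sham hearts, -0.14, 0.10 and 0.17 at days 3, 11 and 28 (SE 0.12 each, adjusted p = 0.522, 0.652 and 0.369), were not called either.

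Activation is represented by Acsf2, a member of the acyl-CoA synthetase family of medium-chain specificity, and it was the gene that fell furthest with JQ1. At day 3 Acsf2 read 8.55, 8.51 and 8.57 in sham, 8.68, 8.46 and 8.34 in TAC and 8.58, 8.32 and 8.41 in JQ1 hearts. Acsf2 at day 11 gave 8.68, 8.66 and 8.77 in sham, 8.66, 8.59 and 8.67 in TAC and 8.38, 8.35 and 8.23 in JQ1 hearts. By day 28 Acsf2 stood at 8.81, 9.10 and 8.82 in sham, 8.43, 8.69 and 8.27 in TAC and 7.50, 7.72 and 7.86 in JQ1 hearts. At day 3 the groups overlapped. At day 11 the JQ1 arrays lay below both other groups, and at day 28 sham, TAC and JQ1 arrays formed 3 steps with no overlap. Acsf2 in TAC hearts differed from sham by -0.051, -0.066 and -0.44 at days 3, 11 and 28 (SE 0.11 each, adjusted p = 0.882, 0.811 and 0.0057). With JQ1 Acsf2 differed from TAC by -0.055, -0.32 and -0.77 at days 3, 11 and 28 (SE 0.11 each, adjusted p = 0.848, 0.0425 and 1.76e-05), and from sham by -0.11, -0.39 and -1.22 at days 3, 11 and 28 (SE 0.11 each, adjusted p = 0.62, 0.0203 and 4.35e-08). Against sham the day 28 signal fell by 56.9%. The second Acsf2 probe set gave differences between JQ1 and TAC of -0.055 at day 3, -0.40 at day 11 and -0.77 at day 28, with adjusted p of 0.889, 0.0493 and 0.000286, and its TAC difference at day 28, -0.36, was not called (adjusted p = 0.08). The day 11 call was lost without any 1 of the 6 arrays compared, with adjusted p from 0.0696 to 0.13.

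**Figure D3:**
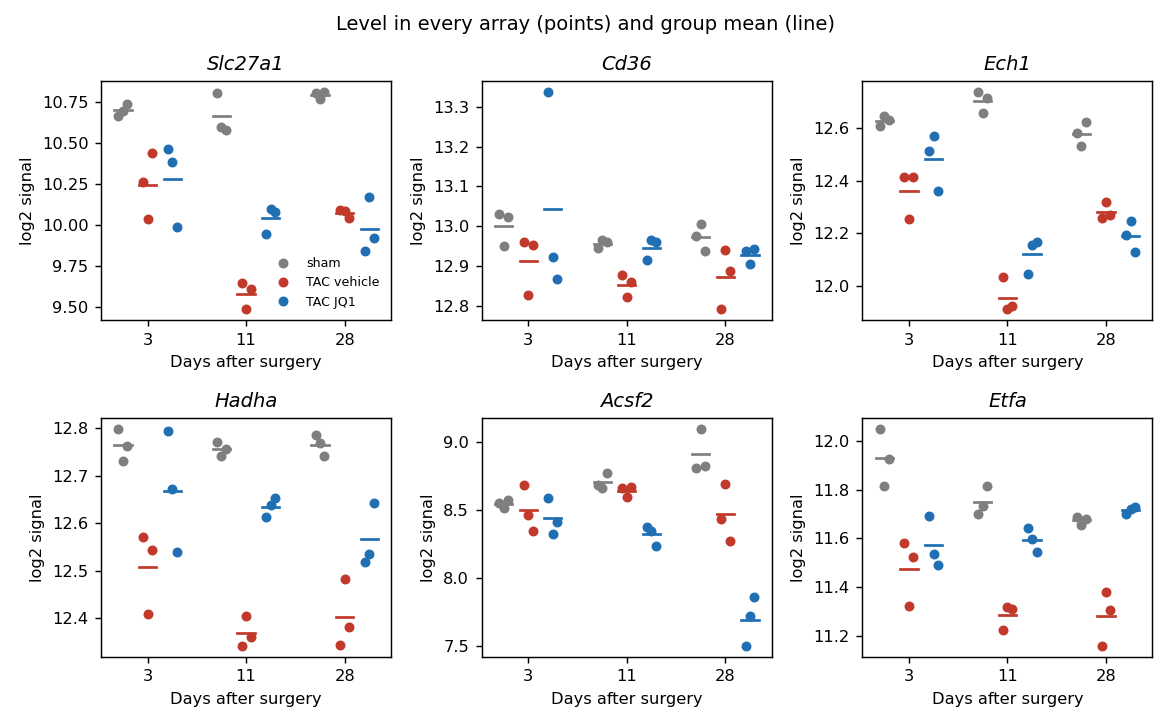
Log2 signal of 6 genes in each array (points) with the mean of the 3 arrays of a group (lines), by day after surgery, for sham (grey), TAC with vehicle (red) and TAC with JQ1 (blue); each panel has its own scale. Slc27a1, Ech1 and Hadha show TAC arrays below all sham arrays on each day, Cd36 shows overlap at days 3 and 28, Acsf2 is lowest with JQ1 at day 28 (7.50 to 7.86), and Etfa with JQ1 is at the sham level at day 28 (11.70 to 11.73).

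In the carnitine shuttle TAC lowered 2, 3 and 3 of the 4 measured genes on days 3, 11 and 28, and all 4 in the mean of the 3 days. Slc25a20 encodes the carnitine-acylcarnitine translocase of the inner membrane. At day 3 Slc25a20 read 11.46, 11.41 and 11.44 in sham, 11.17, 10.84 and 11.06 in TAC and 11.43, 11.10 and 11.11 in JQ1 hearts. Slc25a20 at day 11 gave 11.44, 11.35 and 11.44 in sham, 10.61, 10.70 and 10.75 in TAC and 10.97, 11.00 and 10.99 in JQ1 hearts. By day 28 Slc25a20 stood at 11.34, 11.30 and 11.27 in sham, 10.82, 11.01 and 10.88 in TAC and 10.80, 10.97 and 11.01 in JQ1 hearts. JQ1 replicate 1 of day 3 was within the sham range, all other TAC and JQ1 arrays lay below the sham arrays of their day, and at day 11 the 3 groups did not overlap. Slc25a20 in TAC hearts differed from sham by -0.41, -0.73 and -0.40 at days 3, 11 and 28 (SE 0.085 each, adjusted p = 0.00348, 3.52e-06 and 0.00218). With JQ1 Slc25a20 differed from TAC by 0.19, 0.30 and 0.021 at days 3, 11 and 28 (SE 0.085 each, adjusted p = 0.172, 0.0192 and 0.872), and from sham by -0.22, -0.43 and -0.38 at days 3, 11 and 28 (SE 0.085 each, adjusted p = 0.0771, 0.00168 and 0.0023).

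Cpt2, the carnitine palmitoyltransferase on the inner face of the membrane, fell with TAC on all days. At day 3 Cpt2 read 11.80, 11.89 and 11.72 in sham, 11.45, 11.17 and 11.44 in TAC and 11.57, 11.46 and 11.37 in JQ1 hearts. Cpt2 at day 11 gave 11.66, 11.68 and 11.71 in sham, 11.26, 11.25 and 11.15 in TAC and 11.29, 11.46 and 11.29 in JQ1 hearts. By day 28 Cpt2 stood at 11.77, 11.72 and 11.65 in sham, 11.28, 11.45 and 11.27 in TAC and 11.14, 11.33 and 11.37 in JQ1 hearts. All sham arrays lay above all others on each day. Cpt2 in TAC hearts differed from sham by -0.45, -0.46 and -0.38 at days 3, 11 and 28 (SE 0.082 each, adjusted p = 0.00126, 0.000351 and 0.00236). It did not pass the test between JQ1 and TAC, at 0.12, 0.13 and -0.054 at days 3, 11 and 28 (SE 0.082 each, adjusted p = 0.456, 0.333 and 0.656), and JQ1 hearts differed from sham by -0.34, -0.33 and -0.43 at days 3, 11 and 28 (SE 0.082 each, adjusted p = 0.00545, 0.00943 and 0.000434).

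Cpt1a is the liver form of the outer carnitine palmitoyltransferase, which the heart expresses beside the muscle form. TAC gave -0.32, -0.32 and -0.10 at days 3, 11 and 28 (SE 0.13 each, adjusted p = 0.167, 0.105 and 0.644), with no call. With JQ1 Cpt1a differed from TAC by 0.49, 0.18 and -0.21 at days 3, 11 and 28 (SE 0.13 each, adjusted p = 0.015, 0.382 and 0.258). At day 3 Cpt1a with JQ1 read 10.64, 10.02 and 9.81, against 9.65, 9.60 and 9.73 with TAC and 10.02, 9.96 and 9.97 in sham hearts, so JQ1 replicate 1 was above every sham array. Without that array the day 3 difference was 0.25 with an adjusted p of 0.122, and without TAC replicate 2 it was 0.46 with an adjusted p of 0.0619. Cpt1a in JQ1 hearts differed from sham by 0.17, -0.14 and -0.31 at days 3, 11 and 28 (SE 0.13 each, adjusted p = 0.46, 0.577 and 0.107). Crat, the carnitine acetyltransferase that buffers acetyl-CoA, differed between TAC and sham by -0.14, -0.41 and -0.37 at days 3, 11 and 28 (SE 0.079 each, adjusted p = 0.368, 0.000752 and 0.00198). JQ1 against TAC gave 0.15, 0.22 and 0.0045 at days 3, 11 and 28 (SE 0.079 each, adjusted p = 0.27, 0.0551 and 0.973) for Crat, and JQ1 against sham gave 0.0083, -0.18 and -0.37 at days 3, 11 and 28 (SE 0.079 each, adjusted p = 0.976, 0.153 and 0.00146).

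Malonyl-CoA, the brake on the shuttle, is made by acetyl-CoA carboxylase 2 (Acacb) and removed by malonyl-CoA decarboxylase (Mlycd), and TAC lowered the genes of both. At day 3 Acacb read 10.75, 10.72 and 10.79 in sham, 10.58, 10.14 and 10.56 in TAC and 10.47, 10.55 and 10.51 in JQ1 hearts. Acacb at day 11 gave 10.94, 10.91 and 10.86 in sham, 10.20, 10.22 and 10.16 in TAC and 10.53, 10.61 and 10.57 in JQ1 hearts. By day 28 Acacb stood at 10.95, 11.02 and 11.06 in sham, 10.42, 10.47 and 10.14 in TAC and 9.78, 10.17 and 10.18 in JQ1 hearts. TAC arrays lay below sham arrays on each day, JQ1 arrays lay between them at day 11, and at day 28 JQ1 replicate 1 lay below every TAC array while the other JQ1 arrays overlapped them. Acacb in TAC hearts differed from sham by -0.32, -0.71 and -0.67 at days 3, 11 and 28 (SE 0.1 each, adjusted p = 0.0625, 4.31e-05 and 0.000109). With JQ1 Acacb differed from TAC by 0.081, 0.38 and -0.30 at days 3, 11 and 28 (SE 0.1 each, adjusted p = 0.749, 0.0153 and 0.0456), so Acacb rose with JQ1 at day 11 and fell at day 28. Without JQ1 replicate 1 of day 28 the latter was -0.17 with an adjusted p of 0.265. Against sham, JQ1 hearts differed by -0.24, -0.33 and -0.97 at days 3, 11 and 28 (SE 0.1 each, adjusted p = 0.124, 0.0427 and 6.93e-07), and the day 28 signal fell by 48.8%.

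At day 3 Mlycd read 8.97, 8.98 and 8.91 in sham, 8.59, 8.32 and 8.58 in TAC and 9.20, 8.57 and 8.59 in JQ1 hearts. Mlycd at day 11 gave 9.13, 8.94 and 8.79 in sham, 8.42, 8.31 and 8.39 in TAC and 8.93, 8.86 and 8.76 in JQ1 hearts. By day 28 Mlycd stood at 8.98, 8.97 and 8.86 in sham, 8.54, 8.63 and 8.39 in TAC and 8.30, 8.63 and 8.71 in JQ1 hearts. At day 3 JQ1 replicate 1 was above every sham array and the other JQ1 arrays were below them, at day 11 JQ1 and sham arrays overlapped, and at day 28 the JQ1 arrays lay below the sham arrays. In TAC hearts Mlycd differed from sham by -0.46, -0.58 and -0.42 at days 3, 11 and 28 (SE 0.13 each, adjusted p = 0.0335, 0.00306 and 0.0329). With JQ1 Mlycd differed from TAC by 0.29, 0.48 and 0.021 at days 3, 11 and 28 (SE 0.13 each, adjusted p = 0.176, 0.0146 and 0.919), and from sham by -0.17, -0.10 and -0.39 at days 3, 11 and 28 (SE 0.13 each, adjusted p = 0.49, 0.695 and 0.0347).

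The acyl-CoA dehydrogenases open each turn of the cycle and differ in the chain length they take. TAC lowered 2 of 4 at day 3 and all 4 at days 11 and 28, and JQ1 raised all 4 at day 11 and Acadl and Acadm at day 28. Acads acts on short chains. At day 3 Acads read 10.97, 11.10 and 10.96 in sham, 10.81, 10.56 and 10.85 in TAC and 10.93, 10.94 and 10.92 in JQ1 hearts. Acads at day 11 gave 11.12, 11.20 and 11.08 in sham, 10.57, 10.57 and 10.55 in TAC and 10.99, 10.99 and 10.84 in JQ1 hearts. By day 28 Acads stood at 11.02, 11.09 and 11.13 in sham, 10.80, 10.80 and 10.68 in TAC and 10.56, 10.88 and 10.88 in JQ1 hearts. On each day the TAC arrays lay below the sham arrays, and at day 11 the JQ1 arrays were between the 2 groups. Acads in TAC hearts differed from sham by -0.27, -0.57 and -0.32 at days 3, 11 and 28 (SE 0.082 each, adjusted p = 0.0474, 3.09e-05 and 0.00869). With JQ1 Acads differed from TAC by 0.19, 0.38 and 0.01 at days 3, 11 and 28 (SE 0.082 each, adjusted p = 0.154, 0.00237 and 0.939), and from sham by -0.078, -0.19 and -0.31 at days 3, 11 and 28 (SE 0.082 each, adjusted p = 0.638, 0.149 and 0.008).

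Acadm, the medium-chain enzyme, changed by a similar amount on each day. At day 3 Acadm read 13.23, 13.15 and 13.24 in sham, 12.99, 12.72 and 12.97 in TAC and 12.93, 13.00 and 12.97 in JQ1 hearts. Acadm at day 11 gave 13.15, 13.11 and 13.16 in sham, 12.75, 12.84 and 12.74 in TAC and 12.95, 12.94 and 13.01 in JQ1 hearts. By day 28 Acadm stood at 13.26, 13.13 and 13.14 in sham, 12.79, 12.87 and 12.83 in TAC and 13.02, 13.05 and 13.05 in JQ1 hearts. TAC and sham arrays did not overlap on any day, and at days 11 and 28 all JQ1 arrays lay between them. Acadm in TAC hearts differed from sham by -0.31, -0.36 and -0.35 at days 3, 11 and 28 (SE 0.065 each, adjusted p = 0.00327, 0.000349 and 0.000597). With JQ1 Acadm differed from TAC by 0.073, 0.19 and 0.21 at days 3, 11 and 28 (SE 0.065 each, adjusted p = 0.59, 0.0457 and 0.0268), and from sham by -0.24, -0.17 and -0.14 at days 3, 11 and 28 (SE 0.065 each, adjusted p = 0.00998, 0.0992 and 0.143).

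Acadvl acts on very long chains at the inner membrane. At day 3 Acadvl read 11.32, 11.28 and 11.18 in sham, 11.05, 10.97 and 11.17 in TAC and 11.42, 11.18 and 11.07 in JQ1 hearts. Acadvl at day 11 gave 11.26, 11.16 and 11.21 in sham, 10.73, 10.85 and 10.80 in TAC and 11.07, 11.09 and 11.22 in JQ1 hearts. By day 28 Acadvl stood at 11.23, 11.23 and 11.22 in sham, 10.75, 10.84 and 10.76 in TAC and 10.77, 10.95 and 10.91 in JQ1 hearts. At day 11 the JQ1 arrays reached the sham range, and at day 28 they overlapped the TAC arrays. Acadvl in TAC hearts differed from sham by -0.20, -0.42 and -0.44 at days 3, 11 and 28 (SE 0.078 each, adjusted p = 0.145, 0.000553 and 0.000334). With JQ1 Acadvl differed from TAC by 0.16, 0.33 and 0.10 at days 3, 11 and 28 (SE 0.078 each, adjusted p = 0.217, 0.00472 and 0.385), and from sham by -0.037, -0.084 and -0.35 at days 3, 11 and 28 (SE 0.078 each, adjusted p = 0.853, 0.57 and 0.00207). Acadl, the long-chain enzyme, had the smallest TAC differences of the 4 on each day, -0.18, -0.21 and -0.21 at days 3, 11 and 28 (SE 0.068 each, adjusted p = 0.11, 0.0385 and 0.0333). With JQ1 Acadl differed from TAC by 0.20, 0.22 and 0.21 at days 3, 11 and 28 (SE 0.068 each, adjusted p = 0.0572, 0.0266 and 0.0344) and from sham by 0.016, 0.015 and -0.0082 at days 3, 11 and 28 (SE 0.068 each, adjusted p = 0.935, 0.926 and 0.963), the latter never called.

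The hydratase, hydroxyacyl-CoA dehydrogenase and thiolase steps formed the group in which TAC lowered all 5 genes on each of the 3 days, with no overlap between TAC and sham arrays. Of all genes, 11.9%, 16.6% and 21.1% lay below sham with no overlap on days 3, 11 and 28. Acaa2 is the mitochondrial thiolase of medium and short chains. At day 3 Acaa2 read 13.20, 13.16 and 13.14 in sham, 12.85, 12.61 and 12.85 in TAC and 13.09, 13.05 and 12.94 in JQ1 hearts. Acaa2 at day 11 gave 13.21, 13.12 and 13.17 in sham, 12.61, 12.62 and 12.56 in TAC and 12.92, 12.98 and 13.00 in JQ1 hearts. By day 28 Acaa2 stood at 13.15, 13.14 and 13.11 in sham, 12.68, 12.83 and 12.73 in TAC and 12.92, 13.01 and 12.93 in JQ1 hearts. On each day all JQ1 arrays lay between the sham and the TAC arrays. Acaa2 in TAC hearts differed from sham by -0.40, -0.57 and -0.39 at days 3, 11 and 28 (SE 0.065 each, adjusted p = 0.000476, 2.34e-06 and 0.000189). With JQ1 Acaa2 differed from TAC by 0.26, 0.37 and 0.21 at days 3, 11 and 28 (SE 0.065 each, adjusted p = 0.00973, 0.000391 and 0.0261), and it was the 1 gene of the list higher with JQ1 on all 3 days. Without TAC replicate 2 the day 3 value was 0.18 with an adjusted p of 0.0891, and without JQ1 replicate 1 it was 0.23 with an adjusted p of 0.0524. Acaa2 in JQ1 hearts differed from sham by -0.14, -0.20 and -0.18 at days 3, 11 and 28 (SE 0.065 each, adjusted p = 0.163, 0.0474 and 0.0504).

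Hadh, the hydroxyacyl-CoA dehydrogenase of short chains, gave a similar picture at day 11. At day 3 Hadh read 13.07, 13.07 and 13.06 in sham, 12.82, 12.48 and 12.70 in TAC and 12.86, 12.86 and 12.80 in JQ1 hearts. Hadh at day 11 gave 13.03, 13.00 and 13.02 in sham, 12.55, 12.64 and 12.59 in TAC and 12.85, 12.89 and 12.88 in JQ1 hearts. By day 28 Hadh stood at 13.06, 13.03 and 13.01 in sham, 12.70, 12.83 and 12.61 in TAC and 12.78, 12.88 and 12.84 in JQ1 hearts. TAC arrays lay below sham arrays on each day, and JQ1 arrays lay apart from both groups at day 11. Hadh in TAC hearts differed from sham by -0.40, -0.42 and -0.32 at days 3, 11 and 28 (SE 0.068 each, adjusted p = 0.000785, 0.000117 and 0.00206). With JQ1 Hadh differed from TAC by 0.17, 0.28 and 0.12 at days 3, 11 and 28 (SE 0.068 each, adjusted p = 0.115, 0.00625 and 0.207), and from sham by -0.23, -0.14 and -0.20 at days 3, 11 and 28 (SE 0.068 each, adjusted p = 0.0226, 0.207 and 0.0418).

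Hadha and Hadhb encode the alpha and beta subunits of the mitochondrial trifunctional protein, which carries out these 3 steps on long chains, and their starts face each other 273 bases apart. At day 3 Hadha read 12.80, 12.73 and 12.76 in sham, 12.57, 12.41 and 12.54 in TAC and 12.79, 12.67 and 12.54 in JQ1 hearts. Hadha at day 11 gave 12.77, 12.74 and 12.76 in sham, 12.34, 12.40 and 12.36 in TAC and 12.61, 12.64 and 12.65 in JQ1 hearts. By day 28 Hadha stood at 12.79, 12.77 and 12.74 in sham, 12.34, 12.48 and 12.38 in TAC and 12.52, 12.54 and 12.64 in JQ1 hearts. The 3 groups of day 11 did not overlap, and at day 28 the JQ1 arrays lay above the TAC arrays and below the sham arrays. Hadha in TAC hearts differed from sham by -0.26, -0.39 and -0.36 at days 3, 11 and 28 (SE 0.063 each, adjusted p = 0.0126, 0.000139 and 0.000307). Hadhb in TAC hearts differed from sham by -0.29, -0.35 and -0.30 at days 3, 11 and 28 (SE 0.062 each, adjusted p = 0.00462, 0.000327 and 0.00158). With JQ1 Hadha differed from TAC by 0.16, 0.27 and 0.16 at days 3, 11 and 28 (SE 0.063 each, adjusted p = 0.108, 0.0053 and 0.0709). With JQ1 Hadhb differed from TAC by 0.14, 0.25 and 0.18 at days 3, 11 and 28 (SE 0.062 each, adjusted p = 0.165, 0.00709 and 0.0421). The JQ1 hearts differed from sham by -0.10, -0.12 and -0.20 at days 3, 11 and 28 (SE 0.063 each, adjusted p = 0.377, 0.261 and 0.0266) for Hadha. For Hadhb these differences were -0.15, -0.10 and -0.12 at days 3, 11 and 28 (SE 0.062 each, adjusted p = 0.111, 0.369 and 0.213). Echs1, the short-chain enoyl-CoA hydratase, differed between TAC and sham by -0.29, -0.37 and -0.22 at days 3, 11 and 28 (SE 0.071 each, adjusted p = 0.013, 0.000785 and 0.0361). It was not called between JQ1 and TAC, at -0.022, 0.15 and 0.089 at days 3, 11 and 28 (SE 0.071 each, adjusted p = 0.915, 0.171 and 0.377). In JQ1 hearts Echs1 was lower than sham at day 3, with differences of -0.31, -0.22 and -0.13 at days 3, 11 and 28 (SE 0.071 each, adjusted p = 0.00325, 0.0522 and 0.229).

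Auxiliary enzymes let unsaturated chains enter the cycle, and TAC lowered 4, 4 and 3 of the 4 on days 3, 11 and 28. Ech1, a dienoyl-CoA isomerase, fell further at day 11 than on the other days. At day 3 Ech1 read 12.61, 12.65 and 12.63 in sham, 12.41, 12.25 and 12.42 in TAC and 12.51, 12.57 and 12.36 in JQ1 hearts. Ech1 at day 11 gave 12.74, 12.66 and 12.72 in sham, 12.03, 11.91 and 11.92 in TAC and 12.04, 12.15 and 12.17 in JQ1 hearts. By day 28 Ech1 stood at 12.58, 12.53 and 12.62 in sham, 12.26, 12.32 and 12.27 in TAC and 12.19, 12.25 and 12.13 in JQ1 hearts. Sham arrays lay above all others on each day, and the TAC arrays of day 11 were the lowest. Ech1 in TAC hearts differed from sham by -0.27, -0.75 and -0.30 at days 3, 11 and 28 (SE 0.064 each, adjusted p = 0.0101, 5.58e-08 and 0.00235). At day 11 the signal fell by 40.6%. With JQ1 Ech1 differed from TAC by 0.12, 0.17 and -0.093 at days 3, 11 and 28 (SE 0.064 each, adjusted p = 0.268, 0.0828 and 0.303), with no call, and from sham by -0.15, -0.58 and -0.39 at days 3, 11 and 28 (SE 0.064 each, adjusted p = 0.13, 4.63e-06 and 9.94e-05).

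Decr1, the mitochondrial dienoyl-CoA reductase, fell with TAC on all days. At day 3 Decr1 read 11.89, 11.87 and 11.87 in sham, 11.58, 11.42 and 11.57 in TAC and 11.78, 11.69 and 11.54 in JQ1 hearts. Decr1 at day 11 gave 11.82, 11.73 and 11.80 in sham, 11.20, 11.32 and 11.28 in TAC and 11.37, 11.41 and 11.47 in JQ1 hearts. By day 28 Decr1 stood at 11.88, 11.75 and 11.67 in sham, 11.28, 11.38 and 11.32 in TAC and 11.40, 11.50 and 11.36 in JQ1 hearts. All sham arrays were above all TAC and JQ1 arrays on each day. Decr1 in TAC hearts differed from sham by -0.35, -0.52 and -0.44 at days 3, 11 and 28 (SE 0.07 each, adjusted p = 0.00262, 1.66e-05 and 0.000128). With JQ1 Decr1 differed from TAC by 0.14, 0.15 and 0.09 at days 3, 11 and 28 (SE 0.07 each, adjusted p = 0.221, 0.153 and 0.364), with no call, and from sham by -0.21, -0.37 and -0.35 at days 3, 11 and 28 (SE 0.07 each, adjusted p = 0.0415, 0.0012 and 0.000792), of which the day 3 call was lost without 5 of the 6 arrays compared.

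Eci1, an enoyl-CoA isomerase of mitochondria, moved with both TAC and JQ1. At day 3 Eci1 read 11.32, 11.47 and 11.27 in sham, 11.02, 10.79 and 11.04 in TAC and 11.23, 11.21 and 11.06 in JQ1 hearts. Eci1 at day 11 gave 11.33, 11.21 and 11.24 in sham, 10.70, 10.80 and 10.65 in TAC and 11.10, 11.14 and 11.19 in JQ1 hearts. By day 28 Eci1 stood at 11.29, 11.25 and 11.22 in sham, 10.75, 10.89 and 10.67 in TAC and 10.92, 11.06 and 11.03 in JQ1 hearts. All JQ1 arrays lay between the TAC and the sham arrays on each day. Eci1 in TAC hearts differed from sham by -0.40, -0.54 and -0.48 at days 3, 11 and 28 (SE 0.076 each, adjusted p = 0.00192, 2.68e-05 and 0.000112). With JQ1 Eci1 differed from TAC by 0.22, 0.42 and 0.23 at days 3, 11 and 28 (SE 0.076 each, adjusted p = 0.0705, 0.000479 and 0.0328), and from sham by -0.18, -0.12 and -0.25 at days 3, 11 and 28 (SE 0.076 each, adjusted p = 0.108, 0.391 and 0.0221). Eci2, a second isomerase with a peroxisomal form, differed between TAC and sham by -0.32, -0.51 and -0.16 at days 3, 11 and 28 (SE 0.099 each, adjusted p = 0.0499, 0.000741 and 0.312), the called day 3 groups overlapping. JQ1 gave 0.16, 0.28 and 0.16 at days 3, 11 and 28 (SE 0.099 each, adjusted p = 0.357, 0.058 and 0.255) for Eci2, with no call. Eci2 in JQ1 hearts differed from sham by -0.15, -0.23 and -0.0016 at days 3, 11 and 28 (SE 0.099 each, adjusted p = 0.352, 0.145 and 0.995).

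Electron transfer flavoprotein takes electrons from the acyl-CoA dehydrogenases; Etfa and Etfb encode its subunits and Etfdh the oxidoreductase that passes the electrons to ubiquinone. TAC lowered 2, 3 and 3 of these 3 genes on days 3, 11 and 28. At day 3 Etfa read 12.05, 11.81 and 11.92 in sham, 11.58, 11.32 and 11.52 in TAC and 11.69, 11.54 and 11.49 in JQ1 hearts. Etfa at day 11 gave 11.70, 11.73 and 11.81 in sham, 11.22, 11.32 and 11.31 in TAC and 11.64, 11.60 and 11.54 in JQ1 hearts. By day 28 Etfa stood at 11.69, 11.65 and 11.68 in sham, 11.16, 11.38 and 11.31 in TAC and 11.70, 11.72 and 11.73 in JQ1 hearts. The Etfa arrays of JQ1 hearts lay just above the TAC arrays at day 3 with some overlap, between the groups at day 11, and just above all sham arrays at day 28. Etfa in TAC hearts differed from sham by -0.45, -0.46 and -0.39 at days 3, 11 and 28 (SE 0.075 each, adjusted p = 0.00057, 0.000128 and 0.000806). With JQ1 Etfa differed from TAC by 0.10, 0.31 and 0.43 at days 3, 11 and 28 (SE 0.075 each, adjusted p = 0.509, 0.00617 and 0.000219), a rise of 35.1% in signal at day 28. Against sham, JQ1 hearts differed by -0.36, -0.15 and 0.042 at days 3, 11 and 28 (SE 0.075 each, adjusted p = 0.00163, 0.223 and 0.793).

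At day 3 Etfb read 12.84, 12.83 and 12.81 in sham, 12.66, 12.58 and 12.72 in TAC and 12.64, 12.73 and 12.66 in JQ1 hearts. Etfb at day 11 gave 12.83, 12.81 and 12.76 in sham, 12.39, 12.44 and 12.41 in TAC and 12.63, 12.61 and 12.70 in JQ1 hearts. By day 28 Etfb stood at 12.80, 12.81 and 12.78 in sham, 12.45, 12.55 and 12.37 in TAC and 12.54, 12.63 and 12.57 in JQ1 hearts. Etfb arrays of sham hearts lay above both other groups on each day, and JQ1 and TAC arrays separated at day 11. In TAC hearts Etfb differed from sham by -0.17, -0.39 and -0.34 at days 3, 11 and 28 (SE 0.056 each, adjusted p = 0.0605, 3.62e-05 and 0.000183). With JQ1 Etfb differed from TAC by 0.023, 0.23 and 0.12 at days 3, 11 and 28 (SE 0.056 each, adjusted p = 0.882, 0.00547 and 0.131), and from sham by -0.15, -0.15 and -0.22 at days 3, 11 and 28 (SE 0.056 each, adjusted p = 0.0678, 0.089 and 0.00661). Etfdh in TAC hearts differed from sham by -0.36, -0.41 and -0.33 at days 3, 11 and 28 (SE 0.073 each, adjusted p = 0.00339, 0.000316 and 0.00322), and JQ1 against TAC gave 0.18, 0.17 and 0.18 at days 3, 11 and 28 (SE 0.073 each, adjusted p = 0.131, 0.132 and 0.0933) with no call. Etfdh in JQ1 hearts differed from sham by -0.18, -0.25 and -0.15 at days 3, 11 and 28 (SE 0.073 each, adjusted p = 0.103, 0.0315 and 0.174).

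Thioesterases split acyl-CoA back into fatty acid and coenzyme A. Acot2 is the mitochondrial form and has a close paralog, Acot1, beside it in the genome, so its probe set may also read that transcript. At day 3 Acot2 read 11.79, 11.71 and 11.73 in sham, 11.46, 11.31 and 11.22 in TAC and 12.07, 11.43 and 11.31 in JQ1 hearts. Acot2 at day 11 gave 11.73, 11.74 and 11.78 in sham, 11.32, 11.15 and 11.17 in TAC and 11.38, 11.58 and 11.43 in JQ1 hearts. By day 28 Acot2 stood at 11.74, 11.72 and 11.77 in sham, 11.47, 11.61 and 11.51 in TAC and 11.10, 11.23 and 11.24 in JQ1 hearts. JQ1 replicate 1 of day 3 lay above every sham array, TAC arrays lay below sham arrays on each day, and the JQ1 arrays of day 28 were the lowest of that day. Acot2 in TAC hearts differed from sham by -0.41, -0.54 and -0.21 at days 3, 11 and 28 (SE 0.12 each, adjusted p = 0.0356, 0.00276 and 0.263). With JQ1 Acot2 differed from TAC by 0.27, 0.25 and -0.34 at days 3, 11 and 28 (SE 0.12 each, adjusted p = 0.16, 0.173 and 0.047), and from sham by -0.14, -0.29 and -0.55 at days 3, 11 and 28 (SE 0.12 each, adjusted p = 0.538, 0.139 and 0.00154). The day 28 call with JQ1 was lost without any 1 of the 6 arrays compared, with adjusted p from 0.0552 to 0.145.

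Acot13 was the other thioesterase measured. At day 3 Acot13 read 11.68, 11.57 and 11.61 in sham, 11.50, 11.35 and 11.31 in TAC and 11.20, 11.29 and 11.28 in JQ1 hearts. Acot13 at day 11 gave 11.45, 11.50 and 11.56 in sham, 11.43, 11.52 and 11.44 in TAC and 11.55, 11.38 and 11.38 in JQ1 hearts. By day 28 Acot13 stood at 11.45, 11.47 and 11.28 in sham, 11.38, 11.50 and 11.58 in TAC and 11.49, 11.60 and 11.60 in JQ1 hearts. It was lower in TAC and JQ1 than in sham hearts at day 3, and the groups overlapped at day 11. Acot13 in TAC hearts differed from sham by -0.23, -0.039 and 0.089 at days 3, 11 and 28 (SE 0.072 each, adjusted p = 0.0499, 0.846 and 0.447). With JQ1 Acot13 differed from TAC by -0.13, -0.027 and 0.073 at days 3, 11 and 28 (SE 0.072 each, adjusted p = 0.289, 0.84 and 0.48), and from sham by -0.37, -0.065 and 0.16 at days 3, 11 and 28 (SE 0.072 each, adjusted p = 0.00088, 0.646 and 0.129).

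Peroxisomal oxidation is represented by Hsd17b4, the D-bifunctional protein. At day 3 Hsd17b4 read 10.10, 9.91 and 9.92 in sham, 9.81, 9.65 and 9.67 in TAC and 9.68, 9.58 and 9.53 in JQ1 hearts. Hsd17b4 at day 11 gave 9.87, 9.78 and 9.88 in sham, 9.58, 9.67 and 9.71 in TAC and 9.77, 9.74 and 9.72 in JQ1 hearts. By day 28 Hsd17b4 stood at 9.96, 9.96 and 9.76 in sham, 9.50, 9.66 and 9.69 in TAC and 9.52, 9.51 and 9.70 in JQ1 hearts. TAC arrays lay below sham arrays on each day. Hsd17b4 in TAC hearts differed from sham by -0.27, -0.19 and -0.27 at days 3, 11 and 28 (SE 0.077 each, adjusted p = 0.0318, 0.11 and 0.0161). With JQ1 Hsd17b4 differed from TAC by -0.11, 0.093 and -0.043 at days 3, 11 and 28 (SE 0.077 each, adjusted p = 0.445, 0.455 and 0.707), with no call, and from sham by -0.38, -0.094 and -0.32 at days 3, 11 and 28 (SE 0.077 each, adjusted p = 0.00109, 0.509 and 0.00404).

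The time course was tested as the difference between days in the same fit. For TAC against sham 1 of the 31 genes was called over the 3 days, Ech1, with a moderated F of 17.8 and an adjusted p of 0.0101, against 1.31% of all genes, while 10 passed an unadjusted p under 0.05. Its TAC difference was larger at day 11 than at day 3 by -0.48 (adjusted p = 0.0197), where 0.351% of all genes were called, and smaller at day 28 than at day 11 by 0.45 (adjusted p = 0.0372), where 0.145% were called. Between days 28 and 3 limma called 0 genes, with 6 under an unadjusted p of 0.05, against 1.6% of all genes. The sham hearts themselves gave 0 calls between days, with 3 under an unadjusted p of 0.05, against 0.0652% of all genes. The F of Ech1 passed without any 1 array. The call between days 11 and 3 was lost without 6 of the 12 arrays compared, with adjusted p from 0.0516 to 0.081, and that between days 28 and 11 without 10 of the 12, with adjusted p from 0.0544 to 0.157.

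For JQ1 against TAC the difference between days was called for Acsf2 alone, with F = 11.5 and an adjusted p of 0.0446, against 1.07% of all genes, and 10 genes passed an unadjusted p under 0.05. Acacb (adjusted p = 0.0512) and Acot2 (adjusted p = 0.0806) came next. By pairs of days, a comparison added after values were seen, Acacb differed between days 28 and 11 by -0.68 (adjusted p = 0.0320), against 0.853% of all genes called. Acsf2 differed between days 28 and 3 by -0.72 (adjusted p = 0.0373), against 0.271% of all genes. The second Acsf2 probe set gave -0.71 for these days in limma and was not called (adjusted p = 0.0927). Between days 11 and 3 limma called 0, with 2 under an unadjusted p of 0.05, against 0.0853%. Leaving out single arrays moved the count called over the 3 days between 0 and 4. The F of Acsf2 was lost without 12 of the 18 arrays compared, and the pair calls of Acacb and Acsf2 without 7 of 12 each. Over the 31 genes the TAC differences of 2 days, which share no arrays, correlated with Pearson's r of 0.67 (days 3 and 11), 0.76 (days 11 and 28) and 0.43 (days 3 and 28), where all genes gave 0.66, 0.66 and 0.54. The JQ1 differences gave 0.48, 0.47 and 0.11, where all genes gave 0.59, 0.49 and 0.64. These are descriptions over genes, which are not independent.

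Of 60 further genes of fatty acid handling and its control, 55 were measured, and TAC lowered 17, 31 and 24 of them on days 3, 11 and 28 and raised 0, 3 and 2, where 3.33%, 7.73% and 6.98% of all genes were lower and 4.22%, 7.8% and 8.13% higher. With JQ1 against TAC 4, 4 and 10 of the 55 were lower, against 7.61%, 8.43% and 12.4% of all genes, and 5, 15 and 3 higher, against 4.28%, 7.52% and 7.16%. The shares lower at days 3 and 11 and higher at day 28 were near or below those of all genes. With JQ1 against sham 23, 10 and 25 were lower, against 10.7%, 5.51% and 12.6% of all genes, and 2, 2 and 1 higher, against 6.94%, 5.01% and 7.36%. Of 16 regulators and their targets TAC lowered 2 at day 3, 10 at day 11 and 9 at day 28. At day 11 Ppargc1a, which encodes the coactivator PGC-1 alpha, in TAC hearts differed from sham by -0.72 ± 0.075 (adjusted p = 6.88e-07) and was higher with JQ1 than with TAC by 0.42 (adjusted p = 0.000423). A second probe set of Ppargc1a was not examined on its own. Ppara, the nuclear receptor PPAR alpha, in TAC hearts differed from sham at day 11 by -0.71 ± 0.11 (adjusted p = 4.54e-05) and with JQ1 from TAC at day 3 by -0.37 (adjusted p = 0.021). Against sham, Ppara in JQ1 hearts differed by -0.65 at day 11 and -0.84 at day 28 (adjusted p = 0.000279 and 4.18e-06). Klf15, a transcription factor of heart lipid metabolism, in TAC hearts differed from sham at day 11 by -0.73 ± 0.11 (adjusted p = 3.52e-05) and in JQ1 hearts differed from sham by -0.52 (adjusted p = 0.00205).

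At day 28 the nuclear receptors Ppard and Rxra fell with TAC. Ppard differed from sham by -0.53 in TAC and -0.74 in JQ1 hearts (adjusted p = 1.08e-05 and 6.17e-08). Rxra, the partner of the PPARs, differed from sham by -0.47 in TAC and -0.83 in JQ1 hearts (adjusted p = 8.21e-05 and 4.14e-08), and between JQ1 and TAC by -0.36 (adjusted p = 0.00108). Esrrb, an orphan receptor of the ERR family, differed between JQ1 and sham hearts by -0.45 at day 11 and -0.78 at day 28 (adjusted p = 0.00396 and 4.5e-06). Ucp3, a mitochondrial uncoupling protein and a known PPAR target, differed from sham by -1.71 in TAC hearts at day 3 (adjusted p = 0.000975), and in JQ1 hearts it differed by -1.86 at day 3 and -1.37 at day 11 (adjusted p = 0.000113 and 0.004).

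Of 12 other genes of uptake, binding and activation, TAC lowered 4, 6 and 3, against 3.33%, 7.73% and 6.98% of all genes. It raised 0, 2 and 2, against 4.22%, 7.8% and 8.13%. Slc22a5, the carnitine transporter OCTN2 of the cell membrane, differed at day 3 by -0.61 in TAC and -0.59 in JQ1 hearts from sham (adjusted p = 5.51e-05 and 1.54e-05). Vldlr, the receptor of very low density lipoprotein, differed at day 3 by -0.55 and -0.71 (adjusted p = 0.000799 and 1.59e-05). Acsl5, an acyl-CoA synthetase, was lower with JQ1 than with TAC, with differences of -0.70 at day 3 and -0.77 at day 11 (adjusted p = 0.00048 and 0.000125). Fabp5, a fatty acid-binding protein of macrophages and endothelium among other cells, was lower with JQ1 than with TAC on each day, with differences of -0.57, -0.63 and -0.54 (adjusted p = 0.00206, 0.000649 and 0.00189). A second probe set of Fabp5 was not examined on its own.

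Of 14 other mitochondrial enzymes, TAC lowered 6, 10 and 8, against 3.33%, 7.73% and 6.98% of all genes, and JQ1 raised 0, 6 and 0 against TAC, where 4.28%, 7.52% and 7.16% of all genes were higher. With limma the 0 of day 3 stood beside 2 genes under an unadjusted p of 0.05 in either direction and the 0 of day 28 beside 4. Pcca, a subunit of propionyl-CoA carboxylase, differed between TAC and sham by -0.48 ± 0.069 at day 11 (adjusted p = 3.58e-05) and by -0.47 ± 0.069 at day 28 (adjusted p = 5.46e-05), and it was higher with JQ1 than with TAC by 0.41 at day 11 (adjusted p = 0.000269). Acad8, the isobutyryl-CoA dehydrogenase of valine breakdown, in TAC hearts differed from sham at day 3 by -0.36 ± 0.058 (adjusted p = 0.000415) and differed between JQ1 and sham by -0.41 (adjusted p = 2.62e-05). Of 13 peroxisomal genes TAC lowered 5, 5 and 4. Abcd3, a peroxisomal importer of acyl-CoA, in TAC hearts differed from sham at day 28 by -0.46 ± 0.078 (adjusted p = 0.000266). Decr2, the peroxisomal dienoyl-CoA reductase, was lower with JQ1 than with TAC, with differences of -0.39 at day 3 and -0.50 at day 28 (adjusted p = 0.0152 and 0.00114). Acox3, an acyl-CoA oxidase, was lower with JQ1 than with TAC at day 28, with a difference of -0.30 (adjusted p = 0.00147).

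Markers of other cells moved with the same groups, and their part in the pathway values was not tested. Of 10 macrophage markers TAC raised 4, 9 and 9 on days 3, 11 and 28 and JQ1 lowered 7, 7 and 6 against TAC, where TAC raised 4.22%, 7.8% and 8.13% of all genes and JQ1 lowered 7.61%, 8.43% and 12.4%. Of 10 fibroblast markers TAC raised 3, 6 and 10 and lowered 1, 0 and 0, and JQ1 lowered 4, 4 and 5. Their mean level at day 11, taken like that of the 31 genes above, ran from -0.35 to -0.31 in sham, 0.25 to 0.39 in TAC and -0.11 to 0.045 in JQ1 hearts for fibroblast markers, and from -0.39 to -0.33, 0.23 to 0.36 and -0.30 to -0.22 for macrophage markers. Of 10 endothelial markers TAC raised 0, 3 and 1 and lowered 0, 0 and 1, and JQ1 lowered 2, 2 and 5. Of 9 adipocyte markers measured, which bear on Lpl, Fabp4 and Cd36, TAC changed 0, 1 and 0 in limma (1, 1 and 2 under an unadjusted p of 0.05), and their median lay at percentile 29.9 of all genes. No marker can read a true 0 on this log scale. Of the 8 smooth muscle and pericyte markers TAC lowered 1, 1 and 2, against 3.33%, 7.73% and 6.98% of all genes, and raised 2, 2 and 0. Of 8 neutrophil markers, at a median percentile of 17.3, TAC raised 0, 0 and 1 (1, 0 and 1 under an unadjusted p of 0.05). Of 2 red blood cell markers JQ1 raised 0, 1 and 2 against TAC, where 4.28%, 7.52% and 7.16% of all genes were higher.

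Of the 12 cardiomyocyte markers, TAC lowered 0, 2 and 3 on days 3, 11 and 28, against 3.33%, 7.73% and 6.98% of all genes. An unadjusted p under 0.05 was reached by 2, 4 and 6. Among the same markers JQ1 raised 1, 2 and 1 against TAC, where 4.28%, 7.52% and 7.16% of all genes were higher. Their mean at day 11 was 0.015 to 0.044 in sham, -0.11 to -0.086 in TAC and 0.074 to 0.087 in JQ1 hearts, and that of the 31 genes was 0.16 to 0.19, -0.24 to -0.22 and -0.018 to -0.012. Tcap, the titin cap protein, moved most, by -0.75 with TAC and 1.30 with JQ1 against TAC at day 11 (adjusted p = 1.77e-05 and 4.63e-08). The mean marker difference of that day was -0.13 with TAC and 0.18 with JQ1 against TAC over the 12 markers, and -0.07 and 0.075 over the 11 without Tcap. Against sham it was 0.051 with JQ1 (0.0054 without Tcap), while the median of the 31 genes was -0.15. With arrays centred on the 12 markers, 22 of the 31 genes were still lower with TAC at day 11, whereas the median JQ1 difference of that day went from 0.23 to 0.056 as the median of all genes moved by 0.18. With arrays centred on 11 markers, without Tcap, that median was 0.16 and 12 genes were called with JQ1, 11 of them higher.

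**Figure D4:**
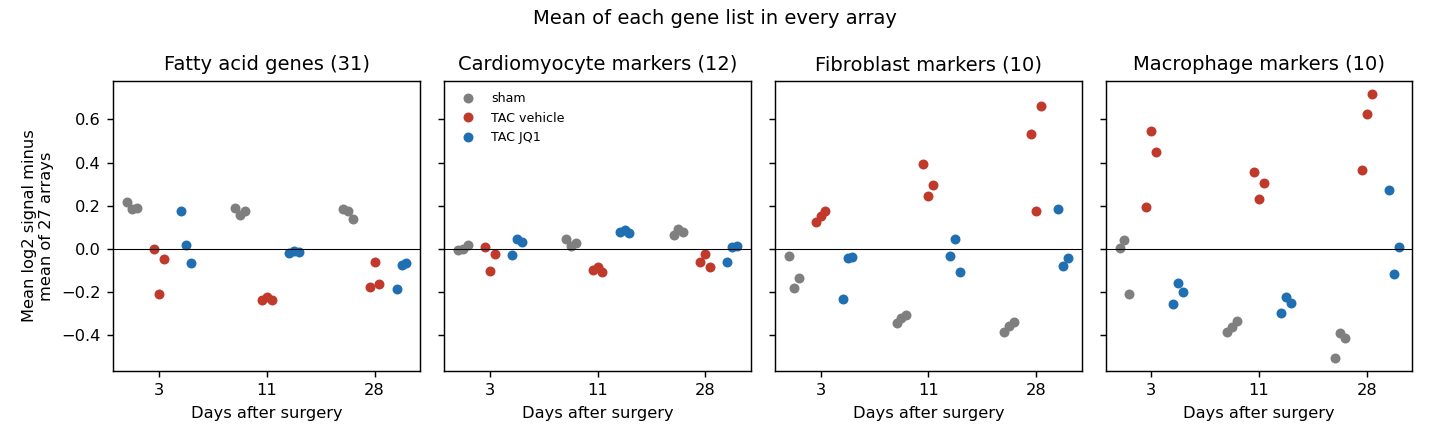
Mean log2 signal of the 31 fatty acid genes and of 12 cardiomyocyte, 10 fibroblast and 10 macrophage markers in every array (points), each gene taken relative to its mean over the 27 arrays, by day after surgery, for sham (grey), TAC with vehicle (red) and TAC with JQ1 (blue). At day 11 the fatty acid genes lie at 0.16 to 0.19 in sham, -0.24 to -0.22 in TAC and -0.018 to -0.012 in JQ1 hearts, whereas fibroblast markers run from 0.25 to 0.39 in TAC hearts. Centring on the 12 cardiomyocyte markers moves the JQ1 split at day 11 to 4 genes higher and 2 lower. Centring on 11 markers, without Tcap, leaves 12 genes called at day 11, 11 of them higher.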

How the data were processed

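The values are log2 signals of 34760 probe sets per array, used as deposited by the authors. The method of normalization was not given in the sources used here, and the submitters' processing notes name limma without a version. Probe sets were named from the platform annotation: 21640 listed 1 gene, 1321 several and 11799 none. Each gene was represented by its probe set with the highest mean among those listing it alone, which left 19937 genes, so Acsl1 and Cpt1b were not analysed. All 27 arrays entered a single fit of 9 group means with lmFit and eBayes (limma 3.58.1, R 4.3.3; 18 residual and 4.9 prior degrees of freedom). P-values were adjusted by Benjamini-Hochberg over all 19937 genes and called under 0.05, and intervals are at 95%. No floor on low signals was set, so all 31 measured genes entered each test. The number of arrays limits the precision. The scripts were tested on simulated data.

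The 33 genes, the 60 further pathway genes and the marker lists were chosen with earlier results of these data known. Values in every array are printed for the genes of each role with the smallest p for TAC at day 11 (at most 2 a role) and for the 8 genes with the smallest p among those called with JQ1. Other pathway genes are named where they were among the 4 with the smallest p in a comparison, with their values in other comparisons set beside these. Replicate numbers did not pair the samples: over 27 same-numbered pairs the correlation of deviations from group means ran from -0.46 to 0.50 with 7 over 0.1. Alternatives were quantile normalization, centring of arrays, a floor on dim genes, averaging probe sets per gene, other eBayes options, array weights, smaller sets of arrays, a replicate block and leaving out each array.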

Additional observations from a re-analysis of the deposited data

Results flagged for a closer look

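The differences below are between effects of the same comparison on different days, tested in limma over 19937 genes. Ech1 differed in its TAC effect over the 3 days (F = 17.8, adjusted p = 0.0101). Its TAC difference was -0.48 further from sham at day 11 than at day 3 (adjusted p = 0.0197), and the difference of day 28 minus that of day 11 was 0.45 (adjusted p = 0.0372). The Ech1 call between days 11 and 3 was lost without 6 of the 12 arrays compared, and that between days 28 and 11 without 10 of 12. The latter was also lost with quantile normalization, centring on array medians and the replicate block. Acsf2 differed in its JQ1 effect over the 3 days (F = 11.5, adjusted p = 0.0446), and the difference of day 28 minus that of day 3 was -0.72 (adjusted p = 0.0373). The F was lost without 12 of the 18 arrays compared and the call between days 28 and 3 without 7 of 12. For the latter the second Acsf2 probe set, in a limma fit of 21640 probe sets, gave -0.71 and was not called (adjusted p = 0.0927). Acacb had a JQ1 effect at day 28 that differed from that of day 11 by -0.68 (adjusted p = 0.0320), the sign being positive at day 11 and negative at day 28. This Acacb call was lost without 7 of the 12 arrays compared. No cause was tested for any of these.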

How the results depend on the processing

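Counts are genes of the 31 called by limma. For TAC against sham, JQ1 against TAC and JQ1 against sham in turn, leaving out each array gave 8 to 21, 0 to 6 and 6 to 14 at day 3, 22 to 24, 11 to 15 and 5 to 6 at day 11, and 18 to 24, 2 to 7 and 12 to 18 at day 28. The mean of the 3 days gave 26 to 27 for TAC and 18 to 22 for JQ1 against TAC. Differences between days gave 1 to 2 for TAC, 0 to 4 for JQ1 and 0 for sham. By pairs of days, in the order 11 and 3, 28 and 11, 28 and 3, they gave 0 to 2, 0 to 1 and 0 for TAC, and 0, 0 to 4 and 0 to 3 for JQ1. No single gene reversed a call in any of 38 settings; 474 calls of single genes were lost and 218 gained.

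In the same terms, quantile normalization gave 14 for JQ1 against sham at day 3 and 0 between days 28 and 11 for TAC and for JQ1. Centring on array medians gave 4 (1 higher) for JQ1 against TAC at day 28, 5 for JQ1 against sham at day 11, 0 for TAC and 4 for JQ1 between days 28 and 11, and 2 for the JQ1 difference between days. Without the dimmest genes JQ1 against TAC gave 4 at day 3, and between days there were 2 for TAC (11 and 3), 3 and 2 for JQ1 (28 and 11, 28 and 3), and 2 for TAC and 3 for JQ1 over the 3 days. The mean of probe sets gave 0 for JQ1 between days 28 and 3 and over the 3 days. Trended and robust eBayes gave 6 for JQ1 against TAC at day 3, 2 for TAC between days 11 and 3, 2 for JQ1 between days 28 and 11, and 2 over the 3 days for each. Array weights gave 17 and 19 for JQ1 against sham at days 3 and 11, then 7, 3 and 2 for TAC and 1, 9 and 2 for JQ1 by pairs of days, and 9, 11 and 4 for TAC, JQ1 and sham over the 3 days.

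With only the groups compared there were 0 at day 3 for TAC and for JQ1 against TAC, 3 for JQ1 against TAC at day 28, 1 for JQ1 against sham at day 3, 0 and 1 for TAC between days 11 and 3 and days 28 and 3, 0 for JQ1 between days 28 and 11 and days 28 and 3, and 3 and 0 over the 3 days. With the 3 groups of a day these were 0, 0 and 3, and 2 for JQ1 against sham at day 3. Both settings leave fewer arrays to estimate the spread. The replicate block gave 0 for TAC between days 28 and 11 and for JQ1 between days 28 and 11, days 28 and 3 and over the 3 days, and moved no other count by over 1.5 times; every sample correlated best with its own number only for TAC against sham at day 28. Centring on 12 cardiomyocyte markers, chosen after seeing the data, gave 6 (4 higher) and 4 (1 higher) for JQ1 against TAC at days 11 and 28, 15 for JQ1 against sham at day 11, 9 (7 higher) for the mean JQ1 effect, 1 for TAC between days 28 and 3, and 2 for JQ1 over the 3 days. Centring on 11 of them gave 1 for TAC between days 28 and 3 and 2 over the 3 days for each. The cause of these shifts was not tested.

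All values are array signals with no count of molecules behind them, so precision rests on 3 arrays a group.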
